A study of Mus musculus with 2 samples.

Results

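The 45 genes described here carry a cell from late G2 phase through mitosis and cytokinesis: CDK1 with its cyclins and activators, the mitotic kinases, cofactors of the anaphase-promoting complex, checkpoint and kinetochore proteins, spindle motors, midzone proteins, and condensin with other chromosome proteins. They were chosen as a fixed list by function, with earlier results of these data known. All 45 were found among the 27995 genes that both count matrices list. They were measured in 2 single-cell RNA sequencing libraries from C57BL/6N wild-type mice of 8 to 12 weeks, 1 from inguinal white adipose tissue (iWAT) and 1 from interscapular brown adipose tissue (iBAT), both of pooled animals. The cells were primary cultures of the stromal vascular fraction, the non-adipocyte cells that collagenase frees from fat, grown in high-glucose medium to 80% confluency. Each library joined an untreated culture with cultures given 5.5 nM FGF1, FGF2 or FGF8 for 48 h, and the matrices used here do not tell these 4 treatments apart. Each library therefore counts as 1 sample, no effect of an FGF on these genes can be given, and no test between depots was possible.

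Preadipocytes are fibroblast-like precursors that divide in culture before they differentiate. In dividing cells CDK1 bound to cyclin A or B drives entry into mitosis, and the anaphase-promoting complex with CDC20 then ends it by marking cyclin B and securin for destruction. Many of the genes are switched on together late in the cycle, and the protein complexes MuvB with B-MYB and FOXM1 are known to act on a promoter element called the cell cycle genes homology region, often found beside CCAAT boxes bound by NF-Y. Their transcripts and proteins are known to build up before division and to be cleared after it, so single cells of a growing culture hold unlike amounts.

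Promoter sequence was not used to choose the genes, and the windows of 6 members are shown first because the members share motifs in them. Of the 45 genes, 37 were matched to a promoter in the RefSeq table for GRCm38.p6, with 41 windows of 250 bases before to 50 after the start, since Gtse1, Prc1, Ect2 and Cep55 have more than 1. Ccna2, Cdc25c, Aurkb, Pbk, Tpx2, Kif20a, Smc4 and Esco2 were not matched. Top2a, Cdk1, Ube2c, Cdc20, Ccnb2 and Cenpa were chosen for display because they cover the range of behaviour described below, from genes higher in cells rich in S phase transcripts (Top2a, Cdk1) to genes near level or lower there (Cdc20, Ccnb2, Cenpa). Each stretch is in the direction of transcription and runs from 170 bases before the start to 30 after. Capitals mark TTTGAA on either strand (read as TTCAAA on the opposite one), the variant TTCGAA, and, for the box of NF-Y, CCAAT on either strand (read as ATTGG on the opposite one). All 6 stretches hold both TTTGAA and CCAAT, as 26 of the 41 windows did, so windows that lack either motif are not shown. On GRCm38.p6 the stretches are Top2a from chr11:99024160-99024359 (minus strand), Cdk1 from chr10:69352883-69353082 (minus strand), Ube2c from chr2:164769759-164769958 (plus strand), Cdc20 from chr4:118437314-118437513 (minus strand), Ccnb2 from chr9:70421525-70421724 (minus strand), Cenpa from chr5:30666716-30666915 (plus strand).
Top2a: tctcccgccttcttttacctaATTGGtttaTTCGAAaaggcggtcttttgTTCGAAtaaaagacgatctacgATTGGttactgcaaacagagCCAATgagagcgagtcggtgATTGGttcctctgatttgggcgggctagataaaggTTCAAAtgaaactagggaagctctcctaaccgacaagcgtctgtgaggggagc
Cdk1: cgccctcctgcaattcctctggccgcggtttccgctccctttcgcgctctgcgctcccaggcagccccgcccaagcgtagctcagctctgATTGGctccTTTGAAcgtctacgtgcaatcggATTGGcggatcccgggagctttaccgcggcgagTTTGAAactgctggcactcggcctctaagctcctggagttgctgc
Ube2c: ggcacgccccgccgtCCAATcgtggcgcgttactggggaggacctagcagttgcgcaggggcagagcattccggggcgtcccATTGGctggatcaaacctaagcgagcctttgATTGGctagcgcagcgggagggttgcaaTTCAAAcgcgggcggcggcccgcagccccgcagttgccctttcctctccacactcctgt
Cdc20: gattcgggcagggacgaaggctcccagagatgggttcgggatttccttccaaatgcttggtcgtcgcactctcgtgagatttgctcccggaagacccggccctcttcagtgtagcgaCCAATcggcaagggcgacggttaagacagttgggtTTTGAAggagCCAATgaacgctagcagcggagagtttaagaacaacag
Ccnb2: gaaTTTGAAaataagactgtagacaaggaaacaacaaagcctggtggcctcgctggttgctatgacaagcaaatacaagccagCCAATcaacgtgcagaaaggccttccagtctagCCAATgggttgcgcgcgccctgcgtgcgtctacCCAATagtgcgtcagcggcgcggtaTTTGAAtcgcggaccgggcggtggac
Cenpa: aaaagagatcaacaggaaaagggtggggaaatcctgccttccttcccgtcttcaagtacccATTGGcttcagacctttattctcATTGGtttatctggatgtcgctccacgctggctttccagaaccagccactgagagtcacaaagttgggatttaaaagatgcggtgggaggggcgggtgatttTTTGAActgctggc

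TTTGAA, the core letters of the homology region, was searched on both strands, overlapping matches included. It was found in 32 of the 41 windows (78.0%), against 17.9% of all 32851 promoter windows in the table. In 29 windows (70.7%) it lay within 50 bases of the start, against 4.94% of all. CCAAT was present in 32 windows (78.0%) against 37.4%, and 21 windows (51.2%) held at least 2 against 11.7%. Both motifs occurred in 26 windows (63.4%), against 6.95% of all. The variant TTCGAA was in 3 windows (7.32%) against 1.56%, and Top2a alone among the members had more than 1. All 10 windows of midzone and cytokinesis genes, some of which overlap, and all 5 of chromosome genes held TTTGAA. No TTTGAA stood in the windows of Ccnb1, Cks2, Birc5, Bub1, Cenpe, Nuf2, Nusap1 or Gtse1. Of 28 windows of S phase genes, 3 (10.7%) held TTTGAA and 18 (64.3%) CCAAT. Of 45 windows of other G2 and M phase genes, 24 (53.3%) held TTTGAA and 28 (62.2%) CCAAT. These matches describe letters in a window, not sites in use.

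The iWAT matrix held 29962 barcodes and 503611913 UMIs (unique molecular identifiers, each counting 1 captured molecule), and the iBAT matrix 28636 and 815235820. After the filters of the study on genes per cell and mitochondrial share, 29744 and 28215 cells were kept, with medians of 16204 and 27235 UMIs. The labels name preadipocytes, and cells with at least 1 UMI of Pdgfra, a receptor of fibroblast-like precursors, made up 58.7% of kept iWAT cells and 91.9% of kept iBAT cells. In them the 6 collagen and stromal markers summed to 27803 counts per 1000000 UMIs (CPM) in iWAT and 11799 in iBAT, with none at 0. Kept cells without a Pdgfra UMI held these markers too, at 19586 CPM in iWAT and 12659 in iBAT. The labels give 10000 cells loaded for each of the 4 treatments. The libraries shared 8 barcodes. Xist was at 345 CPM in iWAT and 0.0505 in iBAT while the Y-linked Ddx3y was at 1.20 and 81.9, so depot, sex-linked transcripts and library cannot be told apart in any comparison of iBAT with iWAT below. Intervals in brackets are exact 95% intervals and cover counting error only.

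In Pdgfra-positive cells the 45 genes together took 3540 CPM in iWAT (3533 to 3546) and 4107 CPM in iBAT (4103 to 4112). The sum was thus 1.16 times as high in the iBAT library (1.158 to 1.163). Levels are UMIs near the 3' end relative to all UMIs of the cells, so they need no division by transcript length, but capture can differ between genes. The most abundant members in both libraries were Ube2c, the ubiquitin-conjugating enzyme of the anaphase-promoting complex, with 269 CPM in iWAT and 314 in iBAT, and Cks2, a small CDK-binding subunit, with 252 and 295 CPM. Smc4 of condensin (202 and 242 CPM) and Cdk1 itself (200 and 246 CPM) came next. The phosphatase gene Cdc25c, which activates CDK1, was the lowest at 8.44 and 8.94 CPM. It was the 1 member that stayed under 10 CPM in both libraries and was left out of counts of fold differences between them. Esco2, a cohesin acetyltransferase, reached 10 CPM in iBAT only (9.55 and 12.9 CPM).

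**Figure D1:**
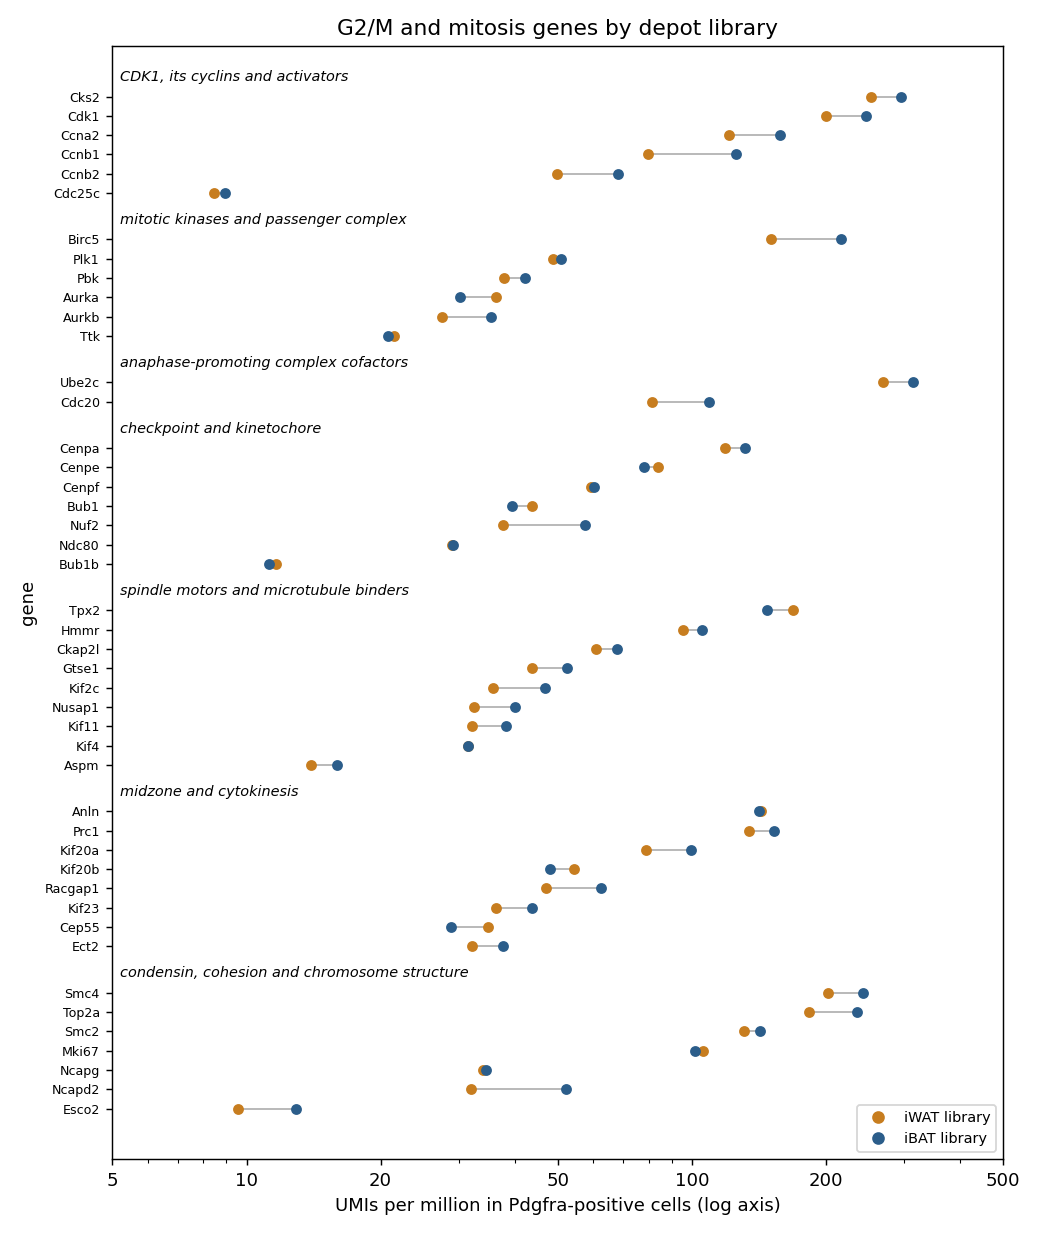
CPM of each of the 45 genes in Pdgfra-positive cells (log axis), 1 point for the iWAT and 1 for the iBAT library, joined by a line and grouped by role. Levels run from about 8 CPM for Cdc25c to 314 CPM for Ube2c in iBAT, and for most genes the iBAT point lies a little to the right of the iWAT point.

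Among CDK1 partners, cyclin A2 (Ccna2) had 121 CPM in iWAT and 157 in iBAT. Cyclin B1 (Ccnb1) had 79.8 and 125 CPM, a ratio of 1.57 (1.55 to 1.59), and cyclin B2 (Ccnb2) 49.8 and 68.3 CPM. All 5 members of this group that reached 10 CPM were higher in the iBAT library, where 56.7% of all genes were. The sum of all 6 genes of the group, Cdc25c included, was 1.27 times as high there (711 and 902 CPM). Among the mitotic kinases and the passenger complex, Birc5, which encodes survivin, was the highest at 150 and 217 CPM, and Ttk, the checkpoint kinase MPS1, the lowest at 21.4 and 20.8 CPM. The Aurora kinases went opposite ways. Aurka, which acts at spindle poles, had 36.3 and 30.2 CPM, a ratio of 0.83 (0.81 to 0.85), whereas Aurkb, the passenger complex kinase, had 27.5 and 35.4 CPM, a ratio of 1.29 (1.26 to 1.32). Cdc20, the activator of the anaphase-promoting complex, had 81.2 and 109 CPM.

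Kinetochore and checkpoint genes were nearly level between the libraries, with sums of 384 and 407 CPM. Cenpa, the centromeric histone H3 variant, was the highest of them at 119 and 132 CPM, and Bub1b, which encodes BUBR1, the lowest at 11.7 and 11.2 CPM. Nuf2, a subunit of the NDC80 complex, stood out with 37.6 and 57.7 CPM, a ratio of 1.53 (1.501 to 1.563), while Ndc80 itself had 28.9 and 29.1 CPM. Spindle genes summed to 514 and 545 CPM. Their highest member, the spindle assembly factor Tpx2, was lower in iBAT (168 and 147 CPM, ratio 0.88, 0.87 to 0.88), and their lowest was Aspm, a spindle pole protein, at 14.0 and 16.0 CPM. In the midzone group the contractile ring scaffold Anln was the highest in iWAT at 143 CPM and had 142 CPM in iBAT, a ratio whose interval included 1. Prc1, the bundler of midzone microtubules, had 134 and 153 CPM and was the highest in iBAT. Ect2, which activates RhoA for cytokinesis, had 32.1 and 37.7 CPM. Cep55, which acts in the final cut between daughter cells, had the lowest ratio of all members at 0.82 (0.80 to 0.84), with 34.9 and 28.7 CPM. Among chromosome genes, Top2a, which encodes topoisomerase II alpha, had 183 and 235 CPM and the proliferation marker Mki67 106 and 101 CPM. The condensin subunit Ncapd2 had the highest ratio of all members, with 31.9 and 52.1 CPM (1.64, 1.60 to 1.67), while the condensin subunit Ncapg had 34.0 and 34.5 CPM.

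Differences of single members between the libraries were small. Of 44 members tested, 3 were 1.5-fold or more higher in iBAT (Ncapd2, Ccnb1 and Nuf2), where 8.75% of 8991 genes were, and 0 were as much higher in iWAT, where 8.55% were. With a 2-fold limit the counts were 0 and 0, against 3.73% and 4.42%. By any amount, 34 of the 44 were higher in iBAT, where 56.7% of all genes were. On the log2 scale the median ratio of iBAT to iWAT was 0.21 over the members and 0.05 over all genes. Intervals lay above 1 for 30 members, where those of 52.5% of all genes did, below 1 for 8, where those of 39.8% did, and included 1 for 6. The 8 were Cep55, Aurka, Tpx2, the kinesin Kif20b (0.89), the checkpoint kinase Bub1 (0.90), the kinetochore motor Cenpe (0.93), Mki67 and Ttk. Over all kept cells intervals lay above 1 for 39 members (53.5% of all genes) and below 1 for 3 (40.2%), which were Cep55, Aurka and Tpx2. There Cenpe (1.05), Mki67 (1.11) and Ttk (1.09) turned to the iBAT side, and the intervals of Kif20b and Bub1 included 1. Beyond the 3 genes named, the highest ratios were those of Birc5 (1.44), Ccnb2 (1.37) and Esco2 (1.35). On GRCm39, in the GENCODE M39 annotation, Ncapd2 lies at chr6:125144962-125169080, Ccnb1 at chr13:100915153-100923116 and Nuf2 at chr1:169325503-169359098, all on the minus strand. Scaling by TMM multiplied every ratio by 0.977 and left 30 of the 44 higher in iBAT, where 52.2% of all genes then were.

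The size of the depot ratio moved with the cells entered. With 3 or more Pdgfra UMIs required, 6687 iWAT and 21551 iBAT cells remained and the member sums were 4039 and 4187 CPM, a ratio of 1.04 (1.03 to 1.04), with 0 members 1.5-fold higher in iBAT, where 8.02% of all genes were. Over all kept cells the sums were 3166 and 4061 CPM, a ratio of 1.28, and 7 members were 1.5-fold higher in iBAT, where 9.47% of all genes were, and 0 in iWAT, where 8.91% were. Cutoffs on Pdgfra UMIs selected unlike shares of the libraries, with 22.5% of kept iWAT and 76.4% of kept iBAT cells at 3 or more. The iBAT cells were deeper. Within cells already chosen for a Pdgfra UMI, Pdgfra itself was at 143 CPM in iWAT and 283 in iBAT. When cells were thinned at random to 10000 UMIs, iWAT cells with a Pdgfra UMI left had a mean of 35.1 member UMIs and those without 27.6. In iBAT these means were 39.2 and 37.1.

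Within each library the 45 genes were spread very unevenly over cells. At 10000 UMIs per cell the median Pdgfra-positive cell held 19 member UMIs in both libraries, but the mean was 34.7 in iWAT and 39.3 in iBAT, and the highest cells held 188 and 241. The 10% of cells with most member UMIs carried 32.8% of them in iWAT and 34.1% in iBAT. In iWAT 29.1% of 15671 cells (28.4 to 29.8) held 50 or more, and in iBAT 32.9% of 25927 did (32.4 to 33.5). Unthinned, the shares were 40.8% and 50.6%. With 3 or more Pdgfra UMIs required, the shares were near level, at 34.2% in iWAT (33.0 to 35.4) and 33.6% in iBAT (33.0 to 34.2), with overlapping intervals. Cells with 100 or more were 7.61% (7.20 to 8.04) and 11.8% (11.4 to 12.2). The limit of 50 cut a continuous range, with 11.5% and 10.6% of cells between 40 and 59. Thinning left out 1789 shallower iWAT cells and no iBAT cell.

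**Figure D2:**
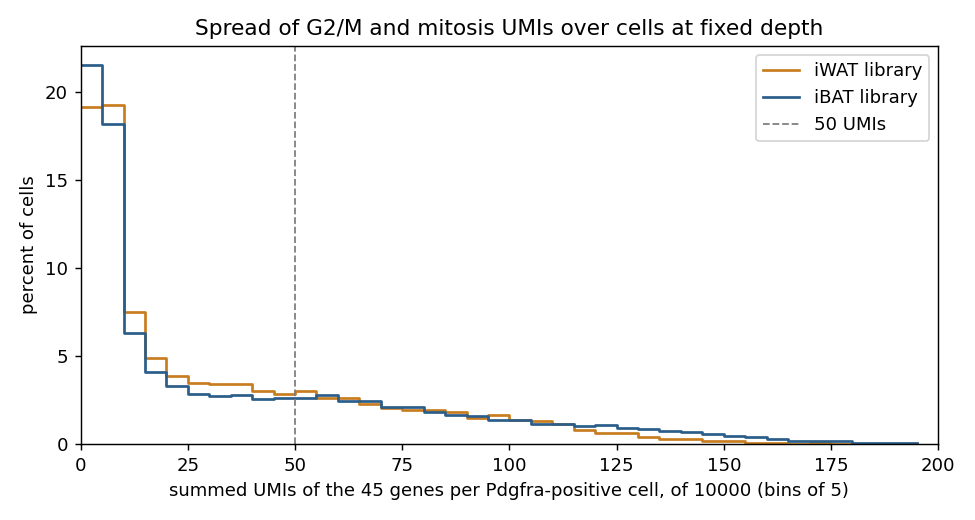
Percent of Pdgfra-positive cells (vertical axis) by their summed UMIs of the 45 genes, in bins of 5, after thinning to 10000 UMIs per cell (horizontal axis). Both libraries peak below 10 UMIs and have a long flat tail, and above 110 UMIs the iBAT line lies above the iWAT line. The 27 iBAT cells at 200 or more lie beyond the axis.

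The variance of the member sum was 38.1 times its mean in iWAT and 47.1 times in iBAT, a ratio that is 1 for counting noise alone. Taken singly, 30 of 43 members in iWAT and 36 of 44 in iBAT had a ratio of 1.5 or more, where 11.5% and 12.2% of all genes at 0.1 UMIs per thinned cell had one. The medians were 1.86 and 1.92 for members and 1.10 and 1.09 for all genes. Ube2c had the highest values at 6.32 and 7.79, followed by Top2a at 4.73 and 5.28. Cdc25c, the rarest, had 1.11 and 1.15, and Esco2, the next in iWAT, had 1.25 and 1.36. Over cells, the 990 pairs of members had a mean Pearson r of 0.36 in iWAT and 0.39 in iBAT on log counts. The most correlated pairs were Ube2c with Prc1 in iWAT (0.71) and Ccnb1 with Ube2c in iBAT (0.75). These are descriptions, since cells are not replicates. Each library also pools 4 treatments, whose part in the spread was not tested.

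Each member was then compared between cells high and low in the other 44, high being cells at or above percentile 90 of that sum and low those at or below the median. All 45 genes were more than 2-fold higher in high cells in both libraries, where 3.97% of 8531 and 4.3% of 8648 genes were when ordered by the sum of all 45. The median fold was 22.0 in iWAT and 25.6 in iBAT. A high cell had UMIs of 34 members in iWAT and 35 in iBAT in the median, and a low cell of 5 and 4. Raw depth differed less, with medians of 20487 and 18611 UMIs in high and low iWAT cells and 31004 and 26430 in iBAT. Scrublet, a caller of doublets, marked 0.252% and 0.190% of high cells and 1.43% and 0.884% of low cells.

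By the mean fold of the libraries the widest contrasts were those of Aspm, Kif2c, Ccnb1, Nusap1 and Kif23. Aspm rested at 0.01 UMIs per low cell and stood at 0.64 in high iWAT cells and 0.79 in high iBAT cells, a fold of 51.8 and 57.7. Kif2c, a kinesin that takes microtubules apart, had folds of 47.1 and 56.2, and Ccnb1 40.5 and 59.6. Nusap1, which binds spindle microtubules, had 38.5 and 53.8, and the midzone kinesin Kif23 44.9 and 43.6. The smallest contrast was that of Ccnb2, with 0.22 UMIs in low and 1.17 in high iWAT cells and 0.31 and 1.57 in iBAT, folds of 5.29 and 4.98. Ccnb1 had 0.09 UMIs per low cell in both libraries, fewer than Ccnb2 although its overall level was higher. Smc4 (6.50 and 6.26), Gtse1, a microtubule-associated regulator of p53 (6.52 and 9.15), Cks2 (7.60 and 13.2) and Cenpa (7.83 and 10.4) also had small contrasts. Low cells averaged 0.74 and 0.88 UMIs of Smc4 and 0.40 and 0.37 of Cenpa, but only 0.17 and 0.15 of Gtse1. Free RNA can add UMIs to cells that do not make a transcript, and its part in the low cells was not tested.

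To place the members along the cycle, cells were ordered a second time by 30 S phase genes such as Mcm2, Pcna and Rrm2, which share no gene with the members. Of the members, 28 of 43 in iWAT and 30 of 44 in iBAT were 2-fold or more higher in cells high for S phase genes, where 3.61% and 4.2% of all genes were. Esco2, whose product joins sister chromatids as DNA is copied, was far above the rest at 19.4-fold and 24.2-fold. Aurkb followed at 7.56 and 7.14, Top2a at 6.41 and 5.99, and the spindle kinesin Kif11 at 5.13 and 4.95. The checkpoint kinase Ttk had 4.74 and 4.91, the mitotic kinase Pbk 4.31 and 6.62, and the condensin gene Ncapg 4.45 and 5.28. At the other end Cenpa was lower in cells high for S phase genes, at 0.76 and 0.73. Ccnb2 was at 1.02 and 0.88, the midzone kinesin Kif20a at 1.10 and 0.95, Cdc20 at 1.13 and 1.32, Cenpf, a kinetochore protein, at 1.13 and 1.18 and Aspm at 1.19 and 1.35. Cdk1 stood with the first kind at 4.12 and 4.25, and cyclin A2 likewise at 3.60 and 4.36, while cyclin B1 was at 1.96 and 1.87. The A-type and B-type cyclins thus differed in this order in both libraries.

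**Figure D3:**
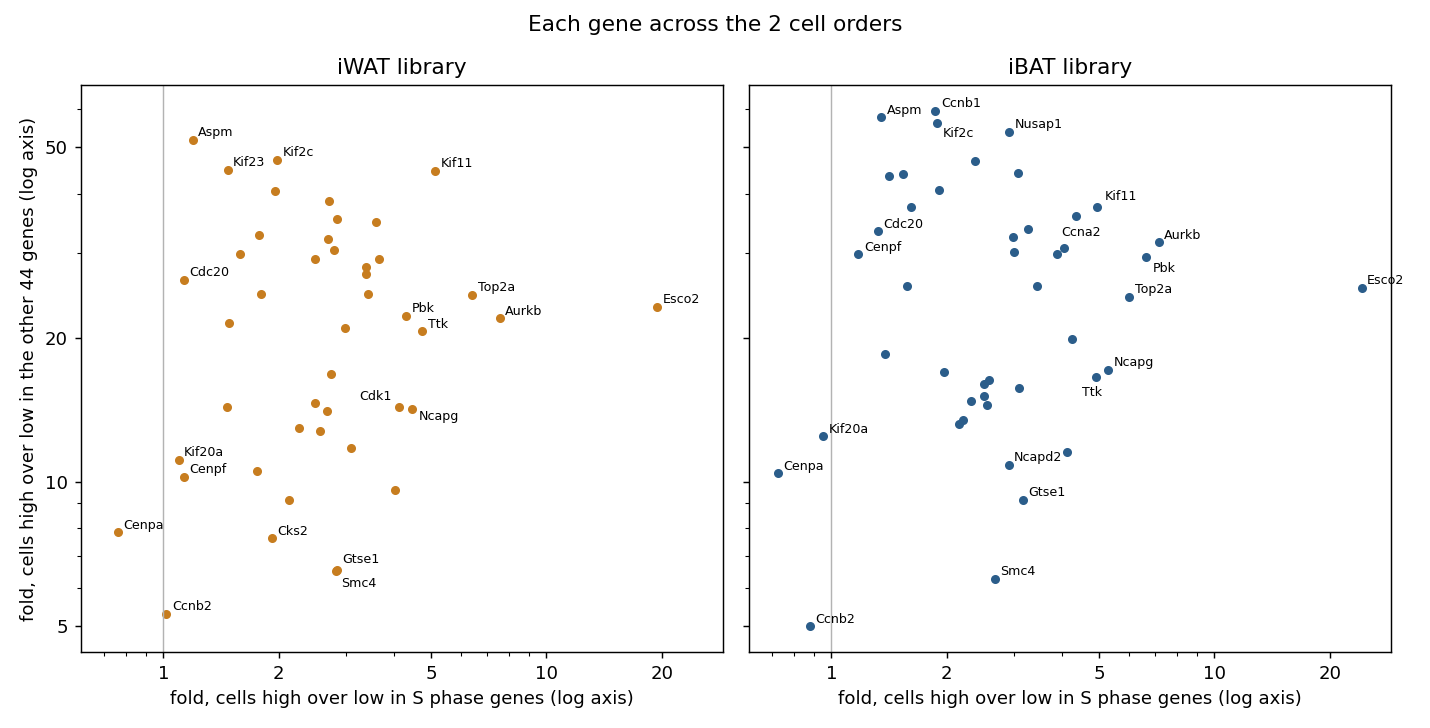
Each point is 1 of the 45 genes, in the iWAT library on the left and the iBAT library on the right. The horizontal axis gives the fold between cells high and low in S phase genes and the vertical axis the fold between cells high and low in the other 44 genes, both on log axes. Esco2 lies far to the right, Cenpa, Ccnb2 and Kif20a lie near or left of 1, and Aspm is at the top left in both libraries.

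The cells highest in the 2 lists were largely different cells. Only 22 iWAT cells stood at or above percentile 90 of both, which is 1.39% of 1584 cells high for members and 1.39% of 1583 high for S phase genes. In iBAT 30 cells did, 1.14% of 2626 and 1.16% of 2596. Of all thinned Pdgfra-positive cells, 1583 of 15671 in iWAT and 2596 of 25927 in iBAT were high for S phase genes. Across all cells the 2 sums still correlated on the log scale, with r of 0.63 in iWAT and 0.66 in iBAT. The mean S phase sum climbed from 4.34 UMIs in iWAT cells with 1 to 4 member UMIs to 21.6 in those with 20 to 49, then dropped to 12.6 in the 79 cells with 150 or more. In iBAT the same bins had 4.87, 26.3 and 16.5 UMIs. The share marked by Scrublet was highest in the bin of 20 to 49 member UMIs, 4.17% in iWAT and 3.41% in iBAT, and its part in the S phase maximum was not tested.

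**Figure D4:**
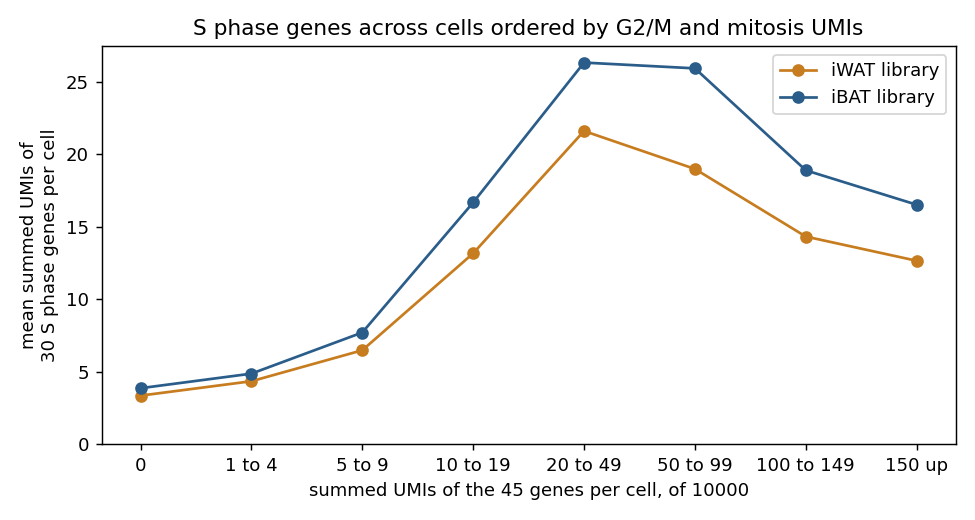
Mean summed UMIs of 30 S phase genes per cell (vertical axis) in bins of the summed UMIs of the 45 genes (horizontal axis), Pdgfra-positive cells thinned to 10000 UMIs, 1 line per library. Both lines rise to a maximum at 20 to 49 UMIs, 21.6 in iWAT and 26.3 in iBAT, and are lower in the bins above.

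Other lists were compared between cells high and low for members in the same way. Of 51 further G2 and M phase genes, 43 in iWAT and 45 in iBAT reached 10 CPM, and 40 and 42 of these were 2-fold or more higher in cells high for members. The median folds over those 43 and 45 genes were 11.5 and 13.7, below the 22.0 and 25.6 of the members, and 1.03 and 0.98 over all genes. The exceptions were Pttg1, which encodes securin (1.21 and 1.31), Zwint, a kinetochore adaptor (1.22 and 1.23), and the microtubule regulator Psrc1 (1.44 and 1.68). Between depots this list was 1.14 times as high in iBAT, with Ckap2 (1.55) and Fbxo5 (1.70) the 2 of 45 above 1.5-fold, where 8.75% of all genes were. Of 29 S phase genes at 10 CPM, 12 in iWAT and 13 in iBAT were 2-fold higher in cells high for members, where 3.97% and 4.3% of all genes were, and 1 and 2 were 2-fold lower, where 0.656% and 0.728% were. Rrm2, a ribonucleotide reductase subunit, had 4.46 and 5.00, whereas Ung, a uracil DNA glycosylase, was at 0.10 and 0.06, and the cyclin E gene Ccne2 at 0.72 and 0.48. Of 9 CDK inhibitor and arrest genes at 10 CPM in each library, 1 was 2-fold higher in high cells, where 3.97% and 4.3% of all genes were. As many as 0 were 2-fold lower, where 0.656% and 0.728% of all genes were, and the medians were 0.88 and 1.02. The 1 was Cdkn2c (p18) at 4.23 and 6.15, and Cdkn1b (p27) was at 1.59 and 1.5. Cdkn2a was at 0.57 in both libraries, Cdkn2b at 0.61 and 0.58 and Btg2, an antiproliferative gene, at 0.65 and 0.68. Cdkn1a (p21) lay on different sides of 1, at 0.88 and 1.06, as did Ccng1 at 0.81 and 1.02. Of the stromal identity genes, 11 in iWAT and 10 in iBAT reached 10 CPM, and 0 of them differed 2-fold, with medians of 0.89 and 0.79. The collagen genes Col1a1 (0.78 and 0.60), Col1a2 (0.77 and 0.69) and Col3a1 (0.75 and 0.56) had fewer UMIs in high cells in both libraries. Pdgfrb was at 1.07 and 0.85 and the proteoglycan gene Dcn at 1.00 and 0.84. Pdgfra, also in this list, was at 1.20 and 0.97. High and low cells were all chosen for a Pdgfra UMI, so its fold depends on that choice. Of 10 genes of FGF signalling 0 differed 2-fold, where 3.97% of all genes were higher and 0.656% lower in iWAT and 4.3% and 0.728% in iBAT. A count of 0 is therefore near the background, for these genes and for the stromal identity genes. The same holds for the 0 CDK inhibitor and arrest genes that were 2-fold lower. Among the FGF signalling genes, the FGF-induced transcription factor gene Etv5 had the largest value at 1.55 and 1.51.

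Cells with markers of other lineages were described by the same list, taking cells that carried only 1 of the 6 lineage markers Pdgfra, Epcam, Sox10, Ptprc, Pecam1 and Adipoq. Classes under 20 cells were left out. Cells with none of the 6 markers numbered 7294 in iWAT and 1443 in iBAT, with 26310 and 14401 CPM of stromal markers. Muscle markers summed to 15.3 CPM in these iWAT cells, against 11.3 in Pdgfra-only cells. In the iBAT cells they summed to 774 CPM, against 27.5, so that class is not stromal alone. The cells with none of the 6 markers had 2769 and 3060 member CPM, 0.78 and 0.75 times the level of Pdgfra-positive cells. Pdgfra-only cells, the main reference below, thus leave out cells with stromal markers. In iWAT, Pdgfra-only cells had 3565 member CPM and the 2429 Epcam-only cells 2152, a ratio of 0.60 (0.60 to 0.61). Epcam marks epithelium, and the 6 keratin and cadherin markers summed to 1890 CPM in these cells against 54.9 in Pdgfra-only cells, while stromal markers still summed to 9896 CPM. Of 43 members tested, 35 were 1.5-fold or more lower in Epcam-only cells, where 13.9% of all genes were, and 0 were as much higher, where 12.9% were. Plk1, the polo-like kinase, was the lowest at 0.46 and Anln the highest at 0.86. At fixed depth 17.4% of Epcam-only cells (15.4 to 19.4) held 50 or more member UMIs, against 29.4% of Pdgfra-only cells (28.6 to 30.2). These shares cover the cells that reached 10000 UMIs, 1412 of the 2429 Epcam-only and 13634 of the 15175 Pdgfra-only cells. When cells with any Epcam UMI were compared with all Pdgfra-positive cells, sharing 1810 cells, the ratio was 0.67, and with 3 or more UMIs of each marker it was 0.43.

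Among the classes of the iBAT library, Pecam1-only and Adipoq-only cells had the lowest levels, by an amount that depended on the definition. The 145 Pecam1-only cells had 3188 CPM of 6 endothelial markers, against 10.9 in Pdgfra-only cells, but 3710 CPM of stromal markers as well, against 11895. Adipocyte markers summed to 849 CPM and muscle markers to 254 CPM in them, against 92.0 and 27.5. They had 1780 member CPM, 0.43 times the 4104 CPM of Pdgfra-only cells (0.42 to 0.45). Of 44 members 42 were 1.5-fold or more lower there, where 19.0% of all genes were, and 0 were as much higher, where 16.7% were. Plk1 was at 0.23 and Ccnb2 at 0.29. Gtse1 alone went the other way, with 71.8 CPM against 52.3, a ratio of 1.37 (1.20 to 1.57). That interval covers counting error only, and the spread of the 218 Gtse1 UMIs over the 145 cells is not given. The 28 Adipoq-only cells, with 18148 CPM of adipocyte and 4448 CPM of stromal markers, had 1497 member CPM, a ratio of 0.36 (0.34 to 0.39), and all 44 members tested were 1.5-fold or more lower, where 29.9% of all genes were (0 were as much higher, where 18.5% were). With any Pecam1 UMI (947 cells, 82.7% of them also Pdgfra-positive) the ratio to Pdgfra-positive cells was 0.94, and with any Adipoq UMI (324 cells, 89.8% of them Pdgfra-positive) it was 0.86. With 3 or more UMIs of each marker the ratios were 0.57 and 0.46. In iWAT the 90 Pecam1-only cells had 221 CPM of endothelial markers, against 14.1 in Pdgfra-only cells. They also had 22261 CPM of stromal markers, so they are called by the marker only. Their member level was 3158 CPM, a ratio of 0.89, with 0 of 44 members 1.5-fold higher or lower, where 4.21% and 4.62% of all genes were. The direction turned with the definition there, since the 364 iWAT cells with any Pecam1 UMI, 58.8% of them Pdgfra-positive, had 4002 member CPM, a ratio of 1.13 (1.12 to 1.14) to Pdgfra-positive cells. The 34 iWAT cells with any Adipoq UMI, 70.6% of them Pdgfra-positive, likewise had more, at 5097 member CPM and a ratio of 1.44 (1.39 to 1.49). They had 80.7 CPM of adipocyte markers, with 5 of the 6 markers at 0, against 3346 in the 324 such cells of iBAT. Pdgfra-positive iWAT cells had 44.4 CPM of these markers.

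Ptprc-only cells, immune by their markers, carried the 45 genes at a sum near that of Pdgfra-only cells. They numbered 102 in iWAT and 131 in iBAT, with 17892 and 18821 CPM of myeloid and 4290 and 1786 CPM of stromal markers, and had 3302 and 3857 member CPM, ratios of 0.93 (0.90 to 0.96) and 0.94 (0.92 to 0.96). In iWAT 5 of 44 members were 1.5-fold or more higher and 7 lower, where 22.3% and 28.9% of all genes were, and in iBAT 2 and 6 of 45, where 19.2% and 28.4% were, so each count was a smaller share than that of all genes. Mki67 was higher in both libraries, at 1.63 (1.42 to 1.87) and 1.97 (1.81 to 2.14), and Top2a at 1.57 (1.41 to 1.74) and 1.31 (1.23 to 1.40). Lower in both were Cdc20 at 0.35 (0.24 to 0.49) and 0.44 (0.37 to 0.51), Kif20a at 0.33 (0.22 to 0.46) and 0.51 (0.43 to 0.60), and Anln at 0.56 (0.46 to 0.69) and 0.52 (0.45 to 0.60).

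Sox10-only cells lay on opposite sides of Pdgfra-only cells in the 2 libraries. The 507 such cells of iBAT had 1152 CPM of 6 glial markers, against 26.1 in Pdgfra-only cells, but 14205 CPM of stromal markers, against 11895, so they are called by the marker only. They had 4911 member CPM, 1.20 times the level of Pdgfra-only cells (1.18 to 1.21). In them 10 of 45 members were 1.5-fold or more higher, where 16.3% of all genes were, and 0 were as much lower, where 16.7% were. Aspm was at 2.54 (2.27 to 2.83), Nusap1 at 2.26, Mki67 at 2.08 and Esco2 at 2.02, whereas Kif20a was at 0.71 (0.65 to 0.77) and Ccnb2 at 0.79. The median cell nevertheless held 11 member UMIs at fixed depth against 19 in Pdgfra-only cells. The 243 Sox10-only cells of iWAT had 278 CPM of glial, 468 CPM of epithelial and 16653 CPM of stromal markers, against 10.9, 54.9 and 28573 in Pdgfra-only cells. They had 2179 member CPM, a ratio of 0.61 (0.60 to 0.63). Of 43 members 34 were 1.5-fold or more lower, where 8.08% of all genes were, and 0 were as much higher, where 9.31% were. With 3 or more UMIs of Sox10 and of Pdgfra required, the ratios were 1.15 in iBAT and 0.31 in iWAT. The cells so defined were unlike, with 2517 CPM of epithelial and 89.7 CPM of glial markers in iWAT and 5.35 and 1009 CPM in iBAT.

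**Figure D5:**
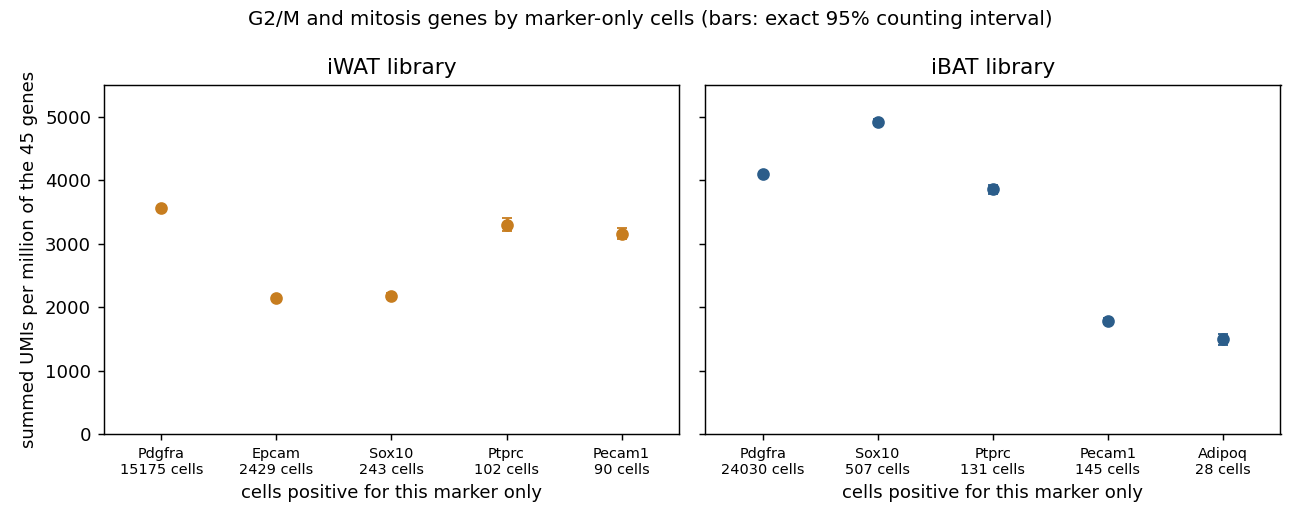
Summed CPM of the 45 genes (vertical axis, from 0) in cells positive for 1 lineage marker only (horizontal axis), iWAT library left and iBAT library right. Bars are exact 95% counting intervals, often smaller than the point. Epcam-only cells in iWAT and Pecam1-only and Adipoq-only cells in iBAT lie well below Pdgfra-only cells, and Sox10-only cells lie below in iWAT and above in iBAT.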

How the data were processed

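The 2 libraries of cultured stromal vascular cells, prepared on the BD Rhapsody system, were used, 1 per depot. The authors deposited raw UMI counts per gene and cell, made with a hosted alignment and annotation pipeline, whose version is not given in the sources used here. The submitters' processing notes name the build mm39 and Seurat 5.0.0. How reads that match more than 1 gene were counted is not stated. Of the last 500 bases of the members' transcripts, 50-base words shared with other genes were found for 10 of 45 members and were a minority in each, at most 15.3% (Cks2).

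From the counts, cells with more than 200 and fewer than 7500 genes and under 30% mitochondrial UMIs were kept, the limits of the study's methods. Total depth was 503611913 UMIs in iWAT and 815235820 in iBAT, and the lowest barcode had 5790 and 10532. UMIs were summed over cells and divided by all UMIs of the same cells (CPM). Genes with 10 CPM in at least 1 library entered fold counts between the libraries. For fold counts between classes, 10 CPM in at least 1 of the classes compared was required. Intervals were exact Poisson, exact (Clopper-Pearson) binomial or exact conditional binomial at 95% and cover counting error only. For spread, cells were thinned at random, with a fixed seed, to 10000 UMIs. Doublets were marked with Scrublet (scanpy 1.11.5) and left in except in an alternative. Its automatic cutoff called 561 iWAT and 0 iBAT cells, so the iWAT cutoff was used for both after the scores were seen, which marked 1.89% and 1.41%. TMM (edgeR 4.0.16) and median-of-ratios (DESeq2 1.42.0) factors served as alternative scalings, with no model fitted. Ratio, interval and thinning code was tested on simulated data.

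The methods name vehicle, FGF1 and FGF2 cultures, whereas the labels list FGF8 as well, and the labels' age range was used. The members and lists were chosen with earlier results of these data known. All members could be named. Those given in full were, per role, the highest and lowest by level, the extremes of the depot ratio, and the extremes of the contrasts between cells high and low in members or in S phase genes. Other members and the class ratios of single genes were chosen after their values were seen. Alternatives tried were other scalings, marker and depth limits, cell sets, gene limits and fold limits.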

Additional observations from a re-analysis of the deposited data

Results flagged for a closer look

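The member sum in Sox10-only cells lay on opposite sides of that in Pdgfra-only cells in the 2 libraries, with ratios of 0.611 in iWAT and 1.20 in iBAT. The difference was not tested, and the markers differed too, with 278 CPM of glial markers in the iWAT cells and 1152 in the iBAT cells. Stromal markers were far above these in both, at 16653 and 14205 CPM.

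Cells removed by the filters carried members as well. The 414 iBAT cells with 7500 genes or more had 5950 member CPM (5919 to 5981), 1.45 times the level of Pdgfra-positive cells, and 52.2% of them held 50 or more member UMIs at fixed depth. Their median depth was 56531 UMIs. The 3 such iWAT cells had 5585 member CPM. Cells with 30% or more mitochondrial UMIs had 1460 member CPM in iWAT (215 cells) and 1171 in iBAT (7 cells). There are no control samples for these cells.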

How the results depend on the processing

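No paired analysis was possible because each depot has 1 library and no numbered replicates, so no replicate could be left out either. The member sum, iBAT over iWAT (1.16), kept its direction under all 10 alternatives. It was 1.13 under TMM, 1.13 under median of ratios and 1.13 after thinning to 10000 UMIs, 1.04 with 3 or more Pdgfra UMIs, 1.28 over all kept cells, 1.15 in Pdgfra-only cells and 1.18 with no upper limit on genes. In alternatives chosen after seeing the data it was 1.22 over kept cells without an Epcam UMI and 1.12 with Pdgfra UMIs counted after thinning. Members 1.5-fold higher in iBAT numbered 0 with 3 or more Pdgfra UMIs, 7 over all kept cells and 0 with a 2-fold limit, and 2 or 3 elsewhere. Those higher in iWAT numbered 0 throughout. The Epcam ratio in iWAT (0.67) was 0.428 with 3 marker UMIs, 0.604 in exclusive classes and 0.661 without Scrublet doublets. Shares of cells with 50 or more member UMIs became 40.8% and 50.6% unthinned, and 34.2% and 33.6% with 3 or more Pdgfra UMIs. Under the last the intervals of the libraries overlapped, so the share was no longer clearly higher in iBAT. The ratio of variance to mean was 97.7 and 168 unthinned and 19.5 and 24.0 at 5000 UMIs, by the construction of that measure.

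A limit is 1 library per depot, with treatments pooled and sex-linked transcripts unlike. Counting error is small at this depth for sums over many cells, but classes under 150 cells rest on few UMIs per gene. Scrublet marked few cells in either library, and free RNA was not modelled.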

Other observations

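Among 8125 genes outside the 45, those whose log counts ran most closely with the member sum over thinned Pdgfra-positive cells were Pclaf, a PCNA-associated factor, with a mean Pearson r of 0.74 over the 2 libraries, then Hmgb2 (0.70), H2az1 (0.68), Cdca8 (0.62), Tuba1b (0.62) and Tmpo (0.62). Rrm2, Cks1b, Ptma and Tacc3 completed the first 10, down to 0.58. Cdca8, a subunit of the same passenger complex as Aurkb and Birc5, was 19.2-fold and 30.9-fold higher in cells high for members. The histone variant gene H2az1 and the tubulin gene Tuba1b were abundant throughout, at 632 and 669 CPM in iWAT, and were 2.60-fold and 2.29-fold higher in cells high for members in iWAT and 3.34-fold and 2.65-fold higher in iBAT. The points share library and depth after thinning, and no test was made.

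Cks2 and Ube2c together took more UMIs than any other pair of members in either library, and Cks2 was also the member with the most 3' end words found in other genes, 15.3%. The effect of such reads on its count was not tested.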
